A study of Mus musculus with 61 samples.

Results

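Cytosolic ribosomal proteins build the ribosomes that translate nuclear messages, and their genes were followed here through mouse preimplantation development and across embryos with Klf17 genotype labels. Members were every symbol that starts with Rpl or Rps and a digit, plus Rplp0, Rplp1, Rplp2 and Rpsa. Pseudogene symbols ending in -ps and the Rps6k kinases were left out. This gave 86 of 24551 genes in the table of oocytes and labelling windows and 86 of 22911 genes in the table of genotypes, and all 86 passed the low-count filter in both. They are 46 large subunit proteins, 31 small subunit proteins, 8 paralogs or near-paralogs (Rpl3l, Rpl7l1, Rpl10l, Rpl22l1, Rpl36al, Rpl39l, Rps27l and Rps27rt) and Rps19bp1, which the symbol rule takes in although its product is not a ribosomal subunit. The first 2 classes, 77 genes, are called core members. Of the members, 4 are X-linked (Rpl10, Rpl36a, Rpl39 and Rps4x).

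The polyadenylated RNA came from MII oocytes and from embryos made by in vitro fertilisation, all cultured with 2 mM 4-thiouridine (4SU) for 6 h. MII oocytes and 9 windows, named by hours post insemination (hpi) from 0-6hpi to 90-96hpi, gave 3 libraries each, of 10 oocytes or embryos. At 0-6hpi the sperm and the cumulus-oocyte complexes were exposed to 4SU together. The genotype set holds 3 Klf17 KO libraries, 3 Klf17 maternal KO (mKO) libraries, 2 Klf17 paternal KO (pKO) libraries and 3 WT libraries titled ctrl. They were collected at the stage the labels name M2C and were likewise labelled with 4SU, and the number of embryos in each is not given. All oocytes and windows are WT by their labels. Klf17 is a Kruppel-like transcription factor, and the allele, the deleted part of the gene and the strain of the mice are not given in the sources used here. Nothing in the labels ties the libraries of a group to separate females or cultures, so p-values measure the spread between libraries, which may be technical.

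A ribosome has a small subunit, which reads the message, and a large subunit, which joins amino acids. Both are made of ribosomal RNA and one copy of nearly every core protein, with the stalk proteins as the exception. Growing oocytes accumulate ribosomes for the first days of development, and the embryo takes over their synthesis after its genome is activated. In vertebrates the messages of ribosomal proteins begin with a run of pyrimidines, the terminal oligopyrimidine or TOP tract, through which mTOR signalling and the RNA-binding protein LARP1 regulate their translation and stability. The counts report polyadenylated messages, not ribosomes or protein.

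The letters around the annotated start site show this feature for some members and not for others. For members on which the later results turn, 30 bases are given, with 10 bases before the annotated start and 20 from it on. They are written 5′ to 3′ and come from RefSeq's GRCm38.p6 annotation. Capitals mark a tract of 5 or more C or T in a row that opens with a C and begins within 5 bases of the start.
Rps6: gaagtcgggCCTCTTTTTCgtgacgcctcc
Rps15a: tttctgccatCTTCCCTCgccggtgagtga
Rps27: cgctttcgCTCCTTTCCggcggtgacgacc
Rps27l: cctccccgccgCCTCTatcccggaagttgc
Rps26: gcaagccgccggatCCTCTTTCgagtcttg
Rpl12: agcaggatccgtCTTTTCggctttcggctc
Rplp0: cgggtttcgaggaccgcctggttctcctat
Rpl5: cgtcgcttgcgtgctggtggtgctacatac
In the same order these stretches lie at chr4:86857348-86857377 (minus strand), chr7:118116128-118116157 (minus strand), chr3:90213629-90213658 (minus strand), chr9:66946076-66946105 (plus strand), chr10:128626487-128626516 (minus strand), chr2:32961702-32961731 (plus strand), chr5:115559457-115559486 (plus strand) and chr5:107900518-107900547 (plus strand). Rps6, Rps15a, Rps27, Rps26 and Rpl12 carry a tract of 6 or more bases, the first annotated start of Rps27l has the shortest one counted (5 bases), and Rplp0 and Rpl5 show none at these annotated starts. RefSeq promoters were matched to 66 of the 86 members, with 78 start sites. A tract was present at 41.0% of these starts and at 18.3% of all 32851 annotated starts.

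In the 250 bases before the start, searched on both strands, the letters CCGGAA (the core that ETS factors such as GABP bind) occurred in 34.6% of member promoters and in 12.0% of all promoters. GGGCGG, the core of GC boxes, occurred in 48.7% of member promoters against 32.7% of all. TATAAA was found in 5.13% of member promoters and 12.4% of all. ATGGC, part of the YY1 motif, was found in 37.2% and 32.9%. CACCC, the core bound by Kruppel-like factors, was found in 51.3% of member promoters and 52.0% of all. A base could count toward more than one of these motifs. The shares describe letters at annotated starts, and binding was not measured.

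Library totals ran from 7395193 to 13301570 counts for oocytes and windows and from 14080264 to 23018252 for genotypes. Of the oocyte markers (Gdf9, Bmp15, Zp3 and others), 11 of 12 were in the table and summed to 17414 to 17916 counts per 1e6 counts (CPM) in MII oocytes, and the 12 blastocyst markers summed to 6506 to 10183 CPM at 90-96hpi, with none at 0 in every library of that group. Cumulus and granulosa markers, 12 of 13 in the table, summed to 1.22 to 2.86 CPM in MII oocytes, where 9 were at 0 in every library. The sources used here do not give whether reads were selected by T-to-C conversion before counting, how reads with several matches were treated or whether strand was used. Levels can therefore include RNA made before labelling. They report polyadenylated RNA, so a change in message amount and one in poly(A) tails cannot be told apart. Ribosomal protein genes have many near-identical processed pseudogenes, so single members carry that uncertainty throughout. The 10 dropped pseudogene symbols held at most 0.00499% of any window library, and pseudogenes under other symbols were not summed.

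The members' part of all counts climbed from 18-24hpi on. Summed over the 86 genes it was 0.324 ± 0.0226% of counts in MII oocytes, 0.336 ± 0.0168% at 0-6hpi, 0.407 ± 0.0126% at 6-12hpi and 0.369 ± 0.0145% at 12-18hpi (mean ± SD, n = 3 libraries). It then measured 0.717 ± 0.0567% at 18-24hpi, 1.53 ± 0.0627% at 24-30hpi and 3.03 ± 0.0393% at 30-36hpi. The last 3 windows held 6.56 ± 0.223%, 8.53 ± 0.911% and 9.60 ± 0.591%. Libraries of 0-6hpi overlapped with those of MII oocytes, and from 6-12hpi to 70-76hpi no library overlapped with one of the window before. The libraries of 70-76hpi held 9.49, 7.67 and 8.44% and those of 90-96hpi 8.94, 10.1 and 9.75%, and these 2 groups overlap. With each library's total scaled by TMM (trimmed mean of M-values) factors, as in all CPM values here, the sums were 0.403% in MII oocytes, 0.374% at 0-6hpi, 2.37% at 30-36hpi, 7.14% at 48-54hpi and 8.29% at 90-96hpi. These are shares of counts, so less RNA of other genes and more RNA of the members cannot be told apart, and neither can fewer cells and less RNA per cell.

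**Figure D1:**
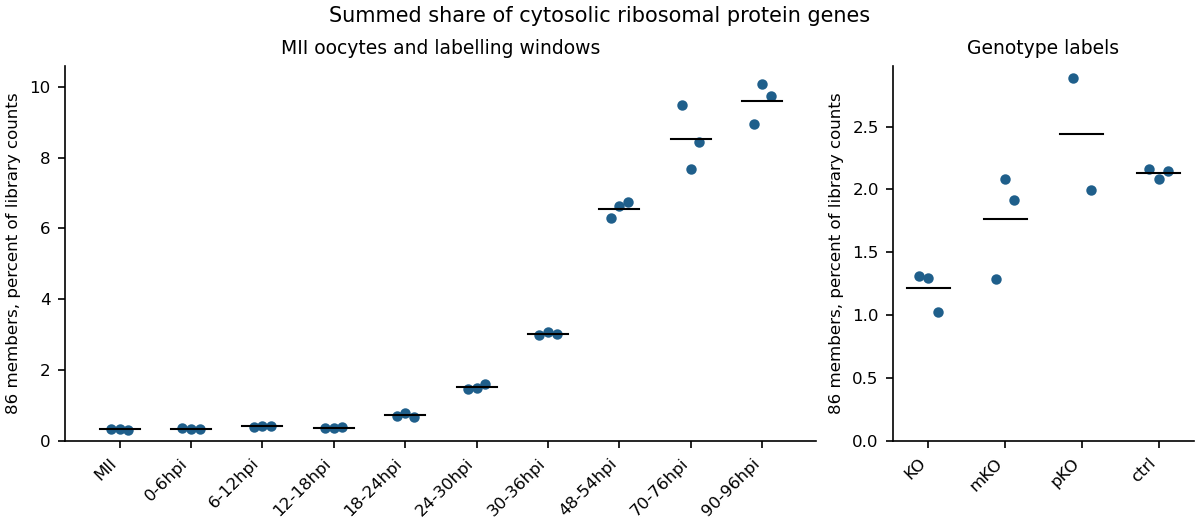
Percent of each library's counts that falls on the 86 members, by window (left) and genotype label (right). Points are libraries and lines are means. Libraries up to 12-18hpi hold at most 0.418%, those of 90-96hpi hold 8.94 to 10.1% at 90-96hpi, and the 3 KO libraries lie below the 3 ctrl libraries.

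Levels of the members in the MII oocyte were uneven. At 90-96hpi the 5 highest of the 77 core members by CPM gave 13.3% of the core total, against 40.7% for the 5 highest in MII oocytes. Rps15a measured 519, 531 and 496 CPM and Rps27l 457, 472 and 421 CPM in the MII libraries. Rplp2, an acidic protein of the stalk, measured 211, 219 and 195 CPM. At the other end Rps27 measured 1.59, 3.08 and 0.994 CPM and Rpl12, at the base of the stalk, 0.743, 2.64 and 2.65 CPM, while Rpl3l and Rps27rt had 0.0354 and 0.0368 CPM on average. The deposited length of Rps15a, a small subunit protein, 5179 bases, is far beyond its coding part, so its level per length is lower, 99.5 CPM per kb. The high members of the oocyte thus include the paralog Rps27l, and the lowest sit at a few reads per library.

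Per length the spread narrowed as the levels rose. Levels were divided by the deposited gene length for this, and only the core members were compared. The standard deviation of log2 CPM per kb over the 77 genes was 2.11 in MII oocytes, 2.24 at 0-6hpi, 1.70 at 12-18hpi, 1.30 at 18-24hpi, 1.09 at 30-36hpi and 0.834 at 90-96hpi. The ratio of the upper to the lower quartile was 2.18 at 90-96hpi, against 9.71 in MII oocytes. Median levels were 13.9 CPM per kb in MII oocytes, 23.7 at 12-18hpi, 212 at 30-36hpi and 938 at 90-96hpi. The highest core member per kb was Rpl41 at 12-18hpi (215 CPM per kb) and Rplp0 from 18-24hpi to 70-76hpi (2901 CPM per kb at 48-54hpi). Members that were low in the oocyte gained more at some of the steps. Over the 77 core members the MII level per kb was correlated (Spearman) with the log2 fold change against the group before. The correlation was -0.66 for 6-12hpi, -0.24 for 12-18hpi, -0.64 for 18-24hpi, -0.57 for 24-30hpi, -0.38 for 30-36hpi and -0.22 for 48-54hpi. It was -0.095 for 0-6hpi, 0.018 for 70-76hpi and -0.071 for 90-96hpi. These values are a description over genes of the same libraries. Low counts at MII make the smallest levels the least precise.

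**Figure D2:**
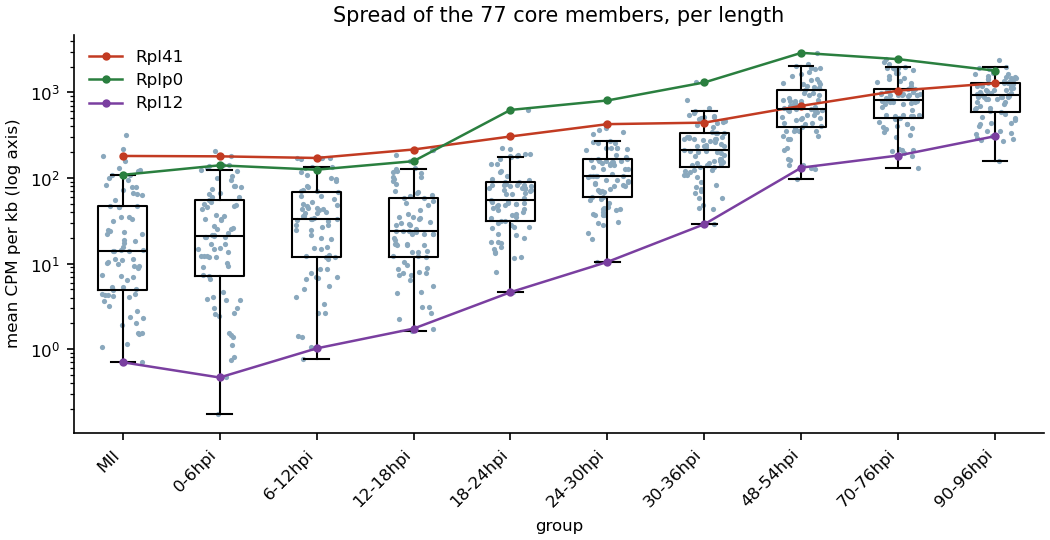
Mean CPM per kb (log axis) of the 77 core members in each group, as points with a box for the quartiles and whiskers to the farthest gene within 1.5 box lengths. Rpl41 (red) is highest at 12-18hpi, Rplp0 (green) is highest from 18-24hpi to 70-76hpi, Rpl12 (purple) starts among the lowest, and the boxes narrow from MII oocytes to 90-96hpi.

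The first 3 windows moved members both ways. A member is called where edgeR's quasi-likelihood test gave a Benjamini-Hochberg adjusted p below 0.05 over all 16234 genes tested, and each later window is set against the one before. Tests are given as the log2 fold change ± its standard error (SE) with that adjusted p. For 0-6hpi against MII oocytes, 26 of 86 members rose and 14 fell, while 21.2% of all genes tested were called (12.9% rose and 8.28% fell). With library totals as the scale, 35 rose and 9 fell, a scale under which the median of all genes lies 0.16 higher in log2, and 8 fell without MII replicate 2. Rpl28, a large subunit protein, measured 24.4, 22.9 and 20.4 CPM at 0-6hpi, against 6.26, 7.82 and 8.95 CPM in MII oocytes (log2 fold change 1.55 ± 0.17, adjusted p = 1.28e-08). Rpl36al, a paralog of X-linked Rpl36a, measured 22.8, 15.5 and 18.6 CPM at 0-6hpi, against 6.26, 7.49 and 8.07 CPM in MII oocytes (log2 fold change 1.38 ± 0.16, adjusted p = 4.26e-08). For both genes every library of 0-6hpi was higher. Some of the members that fell were high in the oocyte. Rps15a measured 325, 300.3 and 303 CPM at 0-6hpi, against 519, 531 and 496 CPM in MII oocytes (log2 fold change -0.73 ± 0.10, adjusted p = 1.43e-06). Its groups do not overlap. Rps27l, Rplp2, Rpl23a and Rps12 fell too, with log2 fold changes of -0.65, -0.60, -1.45 and -0.74.

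At 6-12hpi, 40 members rose and 1 fell against 0-6hpi, with 7.66% of all genes called (4.73% rose and 2.93% fell). Rps6, the small subunit protein that S6 kinases phosphorylate, measured 54.8, 54.2 and 49.0 CPM at 6-12hpi, against 23.8, 24.4 and 21.5 CPM at 0-6hpi (log2 fold change 1.18 ± 0.15, adjusted p = 8.44e-07). X-linked Rps4x measured 56.0, 65.8 and 59.2 CPM at 6-12hpi, against 31.7, 21.5 and 21.3 CPM at 0-6hpi (log2 fold change 1.28 ± 0.21, adjusted p = 5.73e-05). Both genes were higher in every library of 6-12hpi. Rps24, Rpl19 and Rpl7a also rose (log2 fold changes 1.11, 1.05 and 1.24). The one member that fell was Rpl13, a large subunit protein, with 71.6, 84.9 and 72.0 CPM at 6-12hpi, against 119, 105 and 107 CPM at 0-6hpi (log2 fold change -0.53 ± 0.13, adjusted p = 0.00508).

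The next step went the other way for most called members. For 12-18hpi against 6-12hpi, 10 rose and 23 fell, with 13.2% of all genes called (7.11% rose and 6.09% fell). The count of rises changed with the library left out. It was 3 without 6-12hpi replicate 1, 4 without 6-12hpi replicate 3 or 12-18hpi replicate 3 and 5 without 12-18hpi replicate 2. Without 12-18hpi replicate 1 it was 7, and without 6-12hpi replicate 2 it stayed at 10. The shares of all genes in these fits are not given here. Rpl13 measured 17.3, 25.5 and 27.1 CPM at 12-18hpi, against 71.6, 84.9 and 72.0 CPM at 6-12hpi (log2 fold change -1.71 ± 0.14, adjusted p = 1.47e-11). Its windows do not overlap. Rpl21 and Rpl36al fell as well (log2 fold changes -1.28 and -1.22). Among those that rose, Rplp2 measured 199, 214 and 194 CPM at 12-18hpi, against 123, 133 and 122 CPM at 6-12hpi (log2 fold change 0.68 ± 0.12, adjusted p = 0.000119). Rps27l, Rps14, Rpl34, Rpl37a and Rps23 rose too, by 0.67, 0.47, 0.59, 0.57 and 0.86 in log2. The calls of Rps14, Rpl34, Rpl37a and Rps23 were lost in 2 to 4 of 14 alternatives each. Over the 3 windows together, 12-18hpi against MII oocytes, 54 members rose and 8 fell, with 43.9% of all genes called (27.9% rose and 15.9% fell).

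From 18-24hpi on nearly the whole set climbed. For 18-24hpi against 12-18hpi, 68 members rose and 2 fell, with 33.0% of all genes called (18.1% rose and 14.9% fell) and a median log2 fold change of 1.07 over the members, against 0 over all genes. Rplp0, the core of the stalk that recruits the elongation GTPases, measured 809, 933 and 801 CPM at 18-24hpi, against 197, 197 and 246 CPM at 12-18hpi (log2 fold change 1.99 ± 0.13, adjusted p = 9.37e-15). Rps26, which contacts the message upstream of the start codon, measured 158, 183 and 158 CPM at 18-24hpi, against 26.9, 30.3 and 35.1 CPM at 12-18hpi (log2 fold change 2.43 ± 0.15, adjusted p = 3.20e-15). Rpl23a, at the exit of the peptide tunnel, measured 45.8, 47.9 and 42.2 CPM at 18-24hpi, against 4.70, 5.49 and 8.07 CPM at 12-18hpi (log2 fold change 2.89 ± 0.18, adjusted p = 7.46e-15). All 3 genes were higher in every library of 18-24hpi. Rps27a, made as a fusion with ubiquitin, rose by 2.91 in log2. Rpl36 fell, with 5.09, 4.26 and 7.26 CPM at 18-24hpi, against 8.67, 9.66 and 8.73 CPM at 12-18hpi (log2 fold change -0.71 ± 0.21, adjusted p = 0.00912), and these do not overlap. Its call was lost in 4 of 14 alternatives. Rps19bp1 fell by 0.43 in log2, a call lost in 11 of 14 alternatives.

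At 24-30hpi, 75 members rose and 2 fell against 18-24hpi, with 45.4% of all genes called (21.0% rose and 24.4% fell). Rpl13 recovered, with 191, 205 and 219.9 CPM at 24-30hpi, against 65.8, 70.9 and 69.6 CPM at 18-24hpi (log2 fold change 1.58 ± 0.13, adjusted p = 5.54e-12). The 2 members that fell were Rps15a and Rps27l, the highest members in MII oocytes by CPM. Rps15a measured 197, 196 and 187 CPM at 24-30hpi, against 401, 408 and 388 CPM at 18-24hpi (log2 fold change -1.04 ± 0.10, adjusted p = 3.48e-10), and its windows do not overlap. Rps27l fell by 0.38 in log2, a call lost in 6 of 14 alternatives, with a log2 fold change of 0.02 under library totals. At 30-36hpi, 78 members rose and 1 fell against 24-30hpi, with 49.9% of all genes called (21.0% rose and 29.0% fell). Rpl5, which binds the 5S RNA, measured 229.9, 250.5 and 273 CPM at 30-36hpi, against 83.8, 96.8 and 91.8 CPM at 24-30hpi (log2 fold change 1.47 ± 0.12, adjusted p = 2.05e-12). Rpl10 and Rpl11 rose too (log2 fold changes 1.45 and 1.34). Rps27l fell again, with 209.6, 211 and 165 CPM at 30-36hpi, against 366, 439 and 381 CPM at 24-30hpi (log2 fold change -1.02 ± 0.12, adjusted p = 1.15e-08). Over these 3 steps together, 30-36hpi against 12-18hpi, 83 members rose and 2 fell (Rps27l and Rps15a), with 74.3% of all genes called (33.3% rose and 41.0% fell). The members' median log2 fold change was 2.98, against -0.29 over all genes.

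The step to 48-54hpi took in nearly all members: 84 rose and 1 fell against 30-36hpi, with 62.0% of all genes called (28.7% rose and 33.3% fell). Rpl5 measured 1213, 1414 and 1348 CPM at 48-54hpi, against 229.9, 250.5 and 273 CPM at 30-36hpi (log2 fold change 2.40 ± 0.12, adjusted p = 1.62e-18). Rpl3, which lies close to the peptidyl transferase centre, measured 2248, 2547 and 2511 CPM at 48-54hpi, against 300.0, 355 and 352 CPM at 30-36hpi (log2 fold change 2.86 ± 0.34, adjusted p = 2.40e-07). The groups of both genes lie far apart. Rpl3l was the member that fell, and Rpl10l was not called (log2 fold change 0.34, or -0.14 under library totals). Rpl17, Rpl13a and Rpl7a rose by 1.97, 2.03 and 2.68 in log2.

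After 48-54hpi the shares of members called, rises and falls together, were near those of all genes. The members' calls leaned to rises, while those of all genes were split nearly evenly. For 70-76hpi against 48-54hpi, 32 rose and 2 fell, 39.5% of the members, with 43.4% of all genes called (21.6% rose and 21.8% fell). Library totals as the scale gave 58 and 1, and leaving out 70-76hpi replicate 1 gave 15 and 2, 18 and 2 without 48-54hpi replicate 1 or replicate 2, and 21 rises without 70-76hpi replicate 3. Rpl41, the shortest ribosomal protein, measured 799.7, 631 and 756 CPM at 70-76hpi, against 504, 474 and 475 CPM at 48-54hpi (log2 fold change 0.59 ± 0.13, adjusted p = 0.000307). Rps27l, Rpl31 and Rpl39l rose too (log2 fold changes 0.85, 0.61 and 0.67), and the 2 that fell were the paralogs Rpl3l and Rpl7l1. Rpl3 measured 1926, 1699 and 1749.6 CPM at 70-76hpi, against 2248, 2547 and 2511 CPM at 48-54hpi. All 3 later libraries were lower, and the difference did not pass the test except in 2 of 14 alternatives (log2 fold change -0.44 ± 0.32, adjusted p = 0.287).

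For 90-96hpi against 70-76hpi, 26 members rose and 10 fell, 41.9% of the members, with 39.6% of all genes called (20.1% rose and 19.5% fell), or 38 and 8 with library totals as the scale. Leaving out 90-96hpi replicate 2 left 19 rises and 5 falls, and leaving out 90-96hpi replicate 3 left 23 and 6. Rps28, a small subunit protein, measured 338, 596 and 497 CPM at 90-96hpi, against 292, 199 and 246 CPM at 70-76hpi (log2 fold change 0.96 ± 0.16, adjusted p = 1.27e-05). Rpl22l1, Rpl28 and Rps27l also rose (log2 fold changes 1.18, 0.81 and 0.63). Rplp0 fell, with 2917, 2052 and 2341 CPM at 90-96hpi, against 3487, 3215 and 3266 CPM at 70-76hpi (log2 fold change -0.45 ± 0.12, adjusted p = 0.00300). Rpl5 measured 1173, 1016 and 993 CPM at 90-96hpi, against 1557, 1308 and 1310.1 CPM at 70-76hpi (log2 fold change -0.39 ± 0.11, adjusted p = 0.00513). Neither gene's windows overlap. Rpl10, Rpl4, Rps6, Rps3a1, Rps4x, Rpl7l1, Rpl10l and Rps19bp1 make up the rest of the 10. Within 90-96hpi, replicate 1 held less Rps28 and more Rplp0 than the other two libraries.

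The window of the highest mean differed among members. It was 90-96hpi for 60 of 86 members, 69.8%, where 17.8% of all genes tested peaked. It was 70-76hpi for 14 members, 16.3%, against 10.5% of all genes. It was 48-54hpi for 11 members, 12.8%, near the 12.6% of all genes. Among the 11 are Rpl3, Rplp0, Rps4x, Rps6, Rpl7l1 and Rps19bp1, and Rpl3l peaked at 30-36hpi. From MII oocytes to 90-96hpi, 85 members rose and 0 fell, with 81.0% of all genes called (42.6% rose and 38.4% fell), and the members' median log2 fold change was 5.89, against 0.27 over all genes. No member fell there at an unadjusted p below 0.05 either, and DESeq2 called 0 falls. Rpl12 measured 734, 997 and 916 CPM at 90-96hpi, against 0.743, 2.64 and 2.65 CPM in MII oocytes (log2 fold change 8.78 ± 0.34, adjusted p = 2.95e-20). Rps15a changed least among core members, with 748, 886 and 841 CPM at 90-96hpi, against 519, 531 and 496 CPM in MII oocytes (log2 fold change 0.68 ± 0.10, adjusted p = 2.57e-07). Both genes' groups lie apart, by a wide gap for Rpl12 and a smaller one for Rps15a. Rpl3l, with 0.0749 CPM at 90-96hpi and 0.0354 CPM in MII oocytes, was the member not called.

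**Figure D3:**
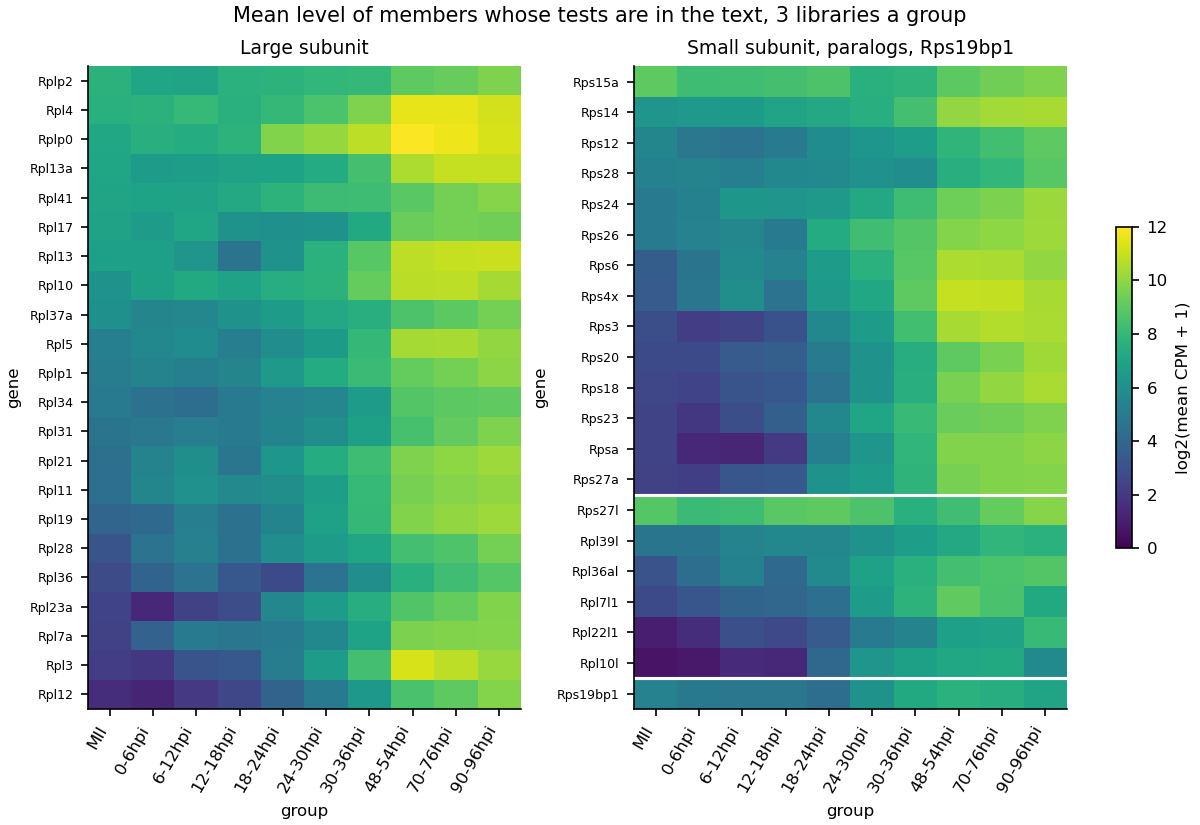
Mean level as log2(CPM + 1) (colour) of members whose tests are given in the text, in MII oocytes and the 9 windows, ordered by their MII level within the large subunit (left) and within the small subunit, the paralogs and Rps19bp1 (right, split by white lines). Rplp2, Rps15a and Rps27l are bright from the oocyte on, while most rows are dark on the left and brightest in the last 3 windows.

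The stalk proteins did not keep step. Rplp0 levels were 148 ± 14.2 CPM in MII oocytes, 213 ± 28.2 at 12-18hpi, 1777 ± 262 at 30-36hpi, 3939.6 ± 219.9 at 48-54hpi and 2437 ± 440.4 at 90-96hpi (mean ± SD, n = 3 libraries, here and for the values below). Its partner Rplp1 measured 32.4 ± 3.10, 42.8 ± 4.59, 286 ± 13.0, 569 ± 4.63 and 956 ± 147 CPM in the same groups. Rplp2 measured 208 ± 12.1, 202 ± 10.1, 252 ± 14.6, 521 ± 21.2 and 809 ± 131 CPM. Rplp0 was thus highest at 48-54hpi, and Rplp1 and Rplp2 at 90-96hpi. Rpl5 and Rpl11, which join the 5S RNA and can together bind the p53 regulator MDM2, had their highest means in different windows. Rpl5 averaged 1061 ± 98.1 CPM at 90-96hpi, against 1392 ± 143 CPM at 70-76hpi. Rpl11 averaged 1035 ± 41.1 CPM at 90-96hpi, against 899 ± 118 CPM at 70-76hpi, and did not pass the test (log2 fold change 0.20 ± 0.12, adjusted p = 0.182), except with library totals as the scale (adjusted p = 0.0297). Rpsa, known also as a laminin receptor, had its lowest mean at 6-12hpi (1.47 ± 1.19 CPM) and measured 35.0 ± 8.78 CPM at 18-24hpi and 969 ± 54.5 CPM at 90-96hpi.

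Paralogs had courses of their own beside their parent genes, compared here per kb. Rps27l, a p53-inducible paralog of Rps27 in human cells, made up 99.6% of the pair's level in MII oocytes, 97.6% at 18-24hpi, 58.0% at 48-54hpi and 63.5% at 90-96hpi. Rps27l had 896 ± 61.9 CPM at 90-96hpi, against 195 ± 26.4 CPM at 30-36hpi, its lowest window, and Rps27 had 601 ± 129 CPM at 90-96hpi, against 100.0 ± 19.4 CPM at 30-36hpi. Rpl39l, best known from male germ cells, made up 82.2% of its pair with Rpl39 in MII oocytes, 54.4% at 18-24hpi and 26.7% at 90-96hpi. Rpl10l, a retrogene needed for male meiosis in mice, was at 1.51 ± 1.43 CPM at 12-18hpi, 15.0 ± 7.30 at 18-24hpi, 74.7 ± 16.2 at 24-30hpi, 153 ± 20.5 at 70-76hpi and 51.9 ± 5.87 at 90-96hpi. Its share of the pair with X-linked Rpl10 was largest at 24-30hpi, 24.6%, and 3.37% at 90-96hpi.

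Rpl3l, the muscle paralog of Rpl3, was low throughout, with 3.94, 3.40 and 2.71 CPM at 24-30hpi, 9.36, 7.50 and 7.84 CPM at 30-36hpi, 2.15, 5.31 and 1.79 CPM at 48-54hpi and 0.0749 ± 0.0649 CPM at 90-96hpi. Its counts were above those of the oocyte in each of the windows 24-30hpi, 30-36hpi and 48-54hpi, and it made up 4.59% of the pair at most. Rpl22l1 made up 2.84% of its pair with Rpl22 in MII oocytes, 26.3% at 12-18hpi and 30.1% at 90-96hpi. Rpl36al, a retrocopy of X-linked Rpl36a, made up 54.2% of its pair at 6-12hpi, 29.3% at 12-18hpi, 48.6% at 18-24hpi and 26.1% at 90-96hpi. Rpl7l1, a relative of Rpl7 whose yeast counterpart Rlp7 works in large subunit assembly, peaked at 48-54hpi with 535 ± 34.8 CPM and measured 175, 141 and 147 CPM at 90-96hpi, against 375, 403 and 352 CPM at 70-76hpi (log2 fold change -1.29 ± 0.14, adjusted p = 4.97e-09). Rps27rt measured 27.5 ± 5.65 CPM at 90-96hpi, 7.60% of its pair with Rps27. Rps19bp1, a regulator of SIRT1, peaked at 48-54hpi as well (201 ± 6.20 CPM). Near-identical pairs such as Rpl36al and Rpl36a may trade reads, and how the counting handled this is not known here.

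**Figure D4:**
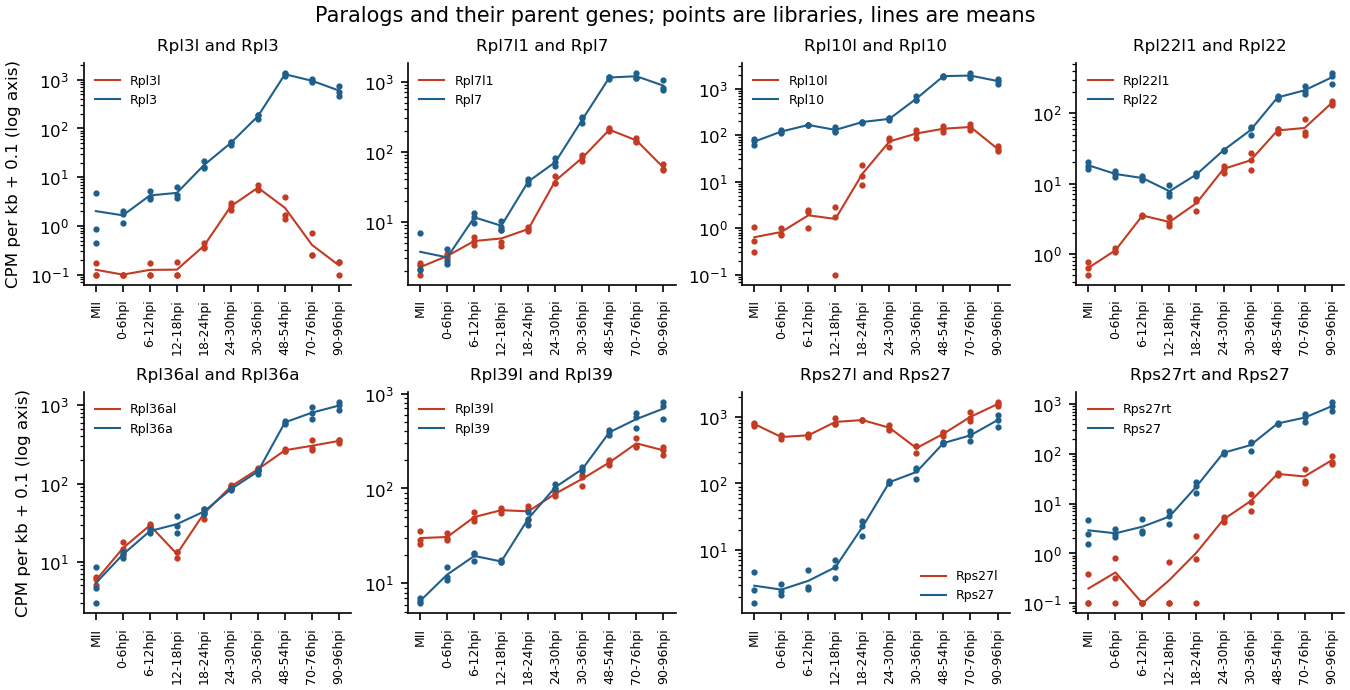
CPM per kb plus 0.1 (log axis) of each paralog (red) and its parent gene (blue) in MII oocytes and the 9 windows. Points are libraries and lines are means. Rps27l and Rpl39l lie above their parents in the oocyte, and Rpl10l and Rpl3l climb at 18-24hpi and 24-30hpi. Rpl3l and Rpl7l1 decline in the last windows, where their parents Rpl3 and Rpl7 also end below their highest means.

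Other gene lists were counted beside the members. At 18-24hpi against 12-18hpi, 14 of 78 mitochondrial ribosomal proteins rose and 32 fell, next to the 68 and 2 of 86 members and to 18.1% and 14.9% of all genes. Of 21 other TOP messages (elongation and initiation factors, Tpt1, Npm1 and others), 5 rose and 5 fell at that step, and of 17 ribosomal protein chaperones and 5S assembly factors 10 rose and 3 fell. Heatr3, which brings Rpl5 to the nucleus, measured 27.8, 29.3 and 20.4 CPM at 18-24hpi, against 4.70, 0.954 and 4.14 CPM at 12-18hpi (log2 fold change 2.97 ± 0.29, adjusted p = 2.98e-10). For 30-36hpi against 12-18hpi the counts were 42 and 24 of 78 mitochondrial ribosomal proteins, 12 and 5 of 21 TOP messages and 14 and 3 of 17 chaperones, with median log2 fold changes of 0.60, 0.64 and 4.24, where 33.3% of all genes rose and 41.0% fell. At 48-54hpi against 30-36hpi, 71 of 78 mitochondrial ribosomal proteins and 20 of 21 TOP messages rose, as did 28.7% of all genes. Most chaperones fell in the last windows. Of 17, 1 rose and 12 fell at 70-76hpi against 48-54hpi, where 21.8% of all genes fell, and 14 fell at 90-96hpi against 70-76hpi, where 19.5% of all genes fell. Tsr2, the chaperone of Rps26, measured 39.0, 37.9 and 44.9 CPM at 90-96hpi, against 184, 178 and 159 CPM at 70-76hpi (log2 fold change -2.10 ± 0.15, adjusted p = 3.56e-13). The difference between lists was not tested.

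In the genotype set Klf17 itself did not separate the labels. It measured 673, 603 and 728 CPM in libraries labelled KO, 359, 845 and 794 in those labelled mKO, 812 and 1015 in those labelled pKO and 596, 805 and 746 in ctrl libraries (log2 fold change -0.10 ± 0.30, adjusted p = 0.869 for KO). The part deleted is not known here, so these counts check nothing, and the groups below are those of the labels.

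The members were lower in the libraries labelled KO. They summed to 1.32, 1.30 and 1.03% of counts in KO libraries, against 2.16, 2.08 and 2.15% in ctrl libraries, and these do not overlap. In edgeR's test over all 16694 genes, 24 of 86 members fell and 0 rose, with 8.13% of all genes called (1.82% rose and 6.31% fell). At an unadjusted p below 0.05, 51 fell and 0 rose, and DESeq2 called 31 falls and 0 rises. The shares of all genes under either criterion are not given here, so these counts stand without a background. The members' median log2 fold change was -0.76, against 0.05 over all genes. It was below 0 for 83 of 86 members, where 48.1% of all genes lay below 0. Every KO library was lower than every ctrl library for 69 of 86 members and for 20.7% of all genes.

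The calls became fewer with any single library left out. Without one library at a time 9 fell without ctrl replicate 1, 4 without KO replicate 1, 2 without ctrl replicate 2, 2 without KO replicate 3, and 0 without KO replicate 2 or ctrl replicate 3. Fitting only KO and ctrl gave 46 and DESeq2's size factors 13. The shares of all genes called in these fits are not given here. A loss of calls particular to the members therefore cannot be told from one over all genes. Other measures moved with the label. Mitochondrial transcripts held 5.92 to 11.4% of counts in KO libraries and 3.23 to 4.18% in ctrl libraries, oocyte markers (11 of 12 in the table, none at 0) summed to 3779 to 4292 CPM in KO and 2087 to 2924 CPM in ctrl, and KO totals were the lowest of the set. The 11 2-cell markers, none at 0 in every library of either group, summed to 1273 to 1335 CPM in KO and 819.6 to 1240.2 CPM in ctrl, and the 12 blastocyst markers to 254 to 309.6 CPM in KO, with none at 0, and 152 to 191 CPM in ctrl, with 1 at 0 in every library. The 13 cumulus and granulosa markers summed lower, to 25.3 to 46.7 CPM in KO and 66.0 to 82.9 CPM in ctrl. Of these, 2 were at 0 in every library of each group. Within each of these lists single markers went both ways. The oocyte marker Bmp15 averaged 2238 CPM in KO and 1104.5 in ctrl, and Zp3 39.4 and 96.5. The blastocyst marker Dab2 averaged 114 and 63.3 CPM, and Tfap2c 17.8 and 50.1. Amhr2, with 20.7 and 57.5 CPM, held most of the cumulus and granulosa sum, and Vcan averaged 2.03 and 0.0712. With mitochondrial genes removed before scaling, 24 members fell. The part of the other measures in the result was not tested.

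Both subunits took part. Rplp0 measured 1066, 982 and 828 CPM in KO libraries, against 2258, 2248 and 2291 CPM in ctrl (log2 fold change -1.24 ± 0.26, adjusted p = 0.0138). Rps3, at the entry of the mRNA channel, measured 126, 114 and 88.5 CPM in KO libraries, against 229, 282 and 252 CPM in ctrl (log2 fold change -1.22 ± 0.29, adjusted p = 0.0208). For both genes every KO library was lower than every ctrl library. Rpl4, which lines the peptide tunnel, measured 398, 461 and 413 CPM in KO libraries, against 809, 869 and 919.7 CPM in ctrl (log2 fold change -1.03 ± 0.27, adjusted p = 0.0285). Rpl7l1, the assembly factor relative, had the smallest adjusted p, with 71.9, 57.6 and 88.8 CPM in KO libraries, against 179, 226 and 216 CPM in ctrl (log2 fold change -1.51 ± 0.31, adjusted p = 0.0130). These groups do not overlap either. Rps18, Rps20, Rpl13, Rpl36, Rpl3, Rpl13a and Rps19bp1 were called as well, with log2 fold changes from -1.47 (Rps19bp1) to -1.20 (Rpl13a). Among the small classes, Rpsa, Rpl11 and Rps6 fell by 1.13, 1.04 and 0.96 in log2.

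Some members did not pass or lay the other way. Rpl5 measured 167, 182 and 150.1 CPM in KO libraries, against 201, 197 and 217 CPM in ctrl (log2 fold change -0.30 ± 0.27, adjusted p = 0.512). Its groups do not overlap, by a narrow gap. Rplp1 and Rplp2 had log2 fold changes of -0.57 (SE 0.30, adjusted p = 0.239) and -0.59 (SE 0.29, adjusted p = 0.213). The 3 members above 0 were Rps27l, Rpl22l1 and Rps12, none of them called. Rps27l measured 456, 391 and 229.8 CPM in KO libraries, against 333, 215 and 229 CPM in ctrl (log2 fold change 0.47 ± 0.36, adjusted p = 0.439), and these overlap. Per kb Rps27l was 87.2% of its pair with Rps27 in KO libraries and 78.0% in ctrl, and Rpl22l1 was 62.8% of its pair in KO and 38.8% in ctrl, differences that were not tested. Of the companion lists, 14 of 78 mitochondrial ribosomal proteins, 6 of 21 other TOP messages and 6 of 17 chaperones fell in KO, as did 6.31% of all genes, and no gene of these lists was called higher by edgeR.

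Neither single-parent label gave a call. For mKO against ctrl edgeR called 0 of 86 members and 0.0% of all genes, 4 members had an unadjusted p below 0.05, and DESeq2 called 0. The share of all genes at that unadjusted threshold is not given here. The summed share was 1.28, 2.08 and 1.92% in mKO libraries, against 2.16, 2.08 and 2.15% in ctrl, where mKO replicate 1 stood low and the other two close to ctrl. Mitochondrial transcripts held 5.82, 4.19 and 5.46% of counts in these mKO libraries, against 4.18, 3.23 and 3.55% in ctrl. The members' median log2 fold change was -0.32, with 79 of 86 below 0, against 0.0034 and 49.7% over all genes. Without mKO replicate 2, 1 member was called. Rplp0 measured 1230.0, 2288 and 1627 CPM in mKO libraries (log2 fold change -0.40 ± 0.26, adjusted p = 0.743), overlapping the 2258, 2248 and 2291 CPM of ctrl. For pKO against ctrl edgeR called 0 members and 0.0% of all genes, 0 members had an unadjusted p below 0.05, and DESeq2 called 0. The 2 pKO libraries held 2.89 and 2.00% and differed from each other more than the ctrl libraries did, with mitochondrial shares of 5.63 and 3.73%. The median log2 fold change was 0.36, with 2 of 86 members below 0, against 0.03 and 47.5% over all genes. A missed threshold does not show that mKO or pKO embryos match ctrl, and KO was not tested against mKO or pKO. The 3 comparisons share the ctrl libraries.

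**Figure D5:**
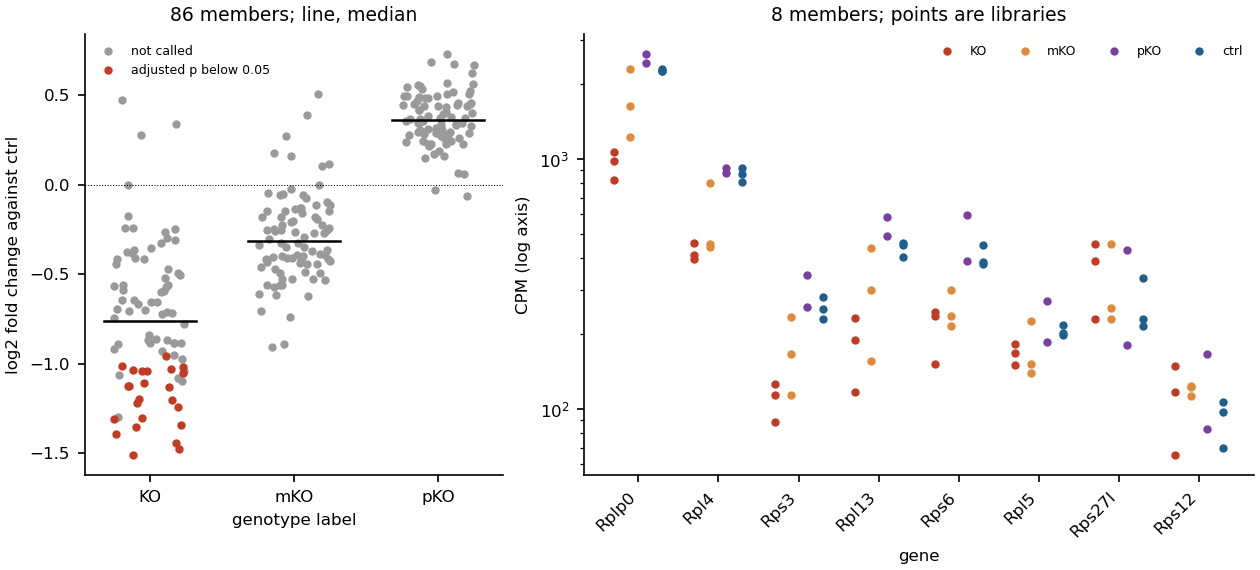
Left, log2 fold change of the 86 members against ctrl for the labels KO, mKO and pKO, with red points called at an adjusted p below 0.05 and lines at the medians of -0.76, -0.32 and 0.36. Right, CPM (log axis) of 8 members in every KO, mKO, pKO and ctrl library, where Rplp0, Rpl4, Rps3, Rpl13 and Rps6 show all KO libraries below ctrl and Rps27l and Rps12 overlap.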

How the data were processed

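The authors deposited read counts per gene, as whole numbers, for 30 libraries of oocytes and labelling windows and for 11 genotype libraries, with a gene length. STAR 2.7.10a, Trim Galore 0.6.10, SAMtools 1.12 and the build GRCm38 are named, per the submitters' processing notes, which give no role or order. The counter, its strand setting and any selection of T-to-C reads are not given in the sources used here. The genotype table calls the ctrl libraries WT. In the deposited table of windows, 1 damaged record, with the only value that was not whole (handled as an expected count), was left out.

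Genes passing filterByExpr (minimum count 10, minimum total 15) were fitted with edgeR 4.0.16 (TMM, robust quasi-likelihood F-test, Benjamini-Hochberg), once over the 30 libraries and once over the 11. SE is the absolute log2 fold change over the square root of F. CPM used TMM-scaled totals. Alternatives were DESeq2 1.42.0, other scalings, no filter, fewer samples, a replicate block and leaving out each library. The fits were tested on simulated data. Replicates differed beyond sampling noise. Total counts limit the precision of members under about 10 counts per library.

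Members, gene lists and the rule for named genes were chosen with earlier results of these data known. Named were the 4 called members of smallest adjusted p each way per comparison, those against the majority (up to 6), small classes, extremes of level, up to 12 members called per genotype, and 2 called genes per other list. The 14 ATAC-seq and 6 embryo-number libraries were not used. Some results that the naming rule takes in are not reported here.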

Additional observations from a re-analysis of the deposited data

How the results depend on the processing

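The counts of members called rest on 3 libraries a group (2 for pKO) and, for low members, on few reads. Of the 15 comparisons, 12 kept their total of called members, rises and falls together, within 1.5 times of the reported one under the 8 alternatives and with each library left out in turn. For 70-76hpi against 48-54hpi, 34 members were called, against 59 with library totals as the scale and 17 to 37 with each library left out. For KO against ctrl, 24 were called, against 13 with DESeq2's size factors, 46 when only the 2 groups were fitted, 31 with DESeq2's Wald test, and 0 to 9 with each library left out. For mKO against ctrl, 0 were called, and 0 to 1 with each library left out. The causes were not tested, and the shares of all genes called under these alternatives are not given here. Library totals moved the median of all genes by 0.39 in log2 for 24-30hpi against 18-24hpi, by -0.48 for 48-54hpi against 30-36hpi and by 0.53 for 90-96hpi against MII oocytes, so changes are read relative to these shifts.

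Of the 81 named single-gene results, 4 values turned their sign, each of them uncalled there. These are Rps27l for 24-30hpi against 18-24hpi (0.022 with library totals), Rpl10l for 48-54hpi against 30-36hpi (-0.138 with library totals, -0.0300 to 0.487 with each library left out) and Klf17 for KO against ctrl (-0.214 to 0.00117 with each library left out). With a library left out, 97 further values lost their call, 75 of them for KO against ctrl.

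The labels number the replicates alike in each group, but deviations of same-numbered libraries correlated only between -0.040 and 0.188, so the numbers were not taken as pairs. With the replicate number as a block, 34 members were called for KO against ctrl and 34 for 70-76hpi against 48-54hpi, and no count moved by over 1.5 times. Per-length values rest on the deposited lengths, and members under 10 counts per library have imprecise folds.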

Other observations

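A list of 18 genes drawn up around the translation of TOP messages was counted as well (Larp1, its relatives, mTOR pathway members, Myc, Mycn and others). Of these, 5 rose and 1 fell at 18-24hpi against 12-18hpi, with 33.0% of all genes called (18.1% rose and 14.9% fell). At 30-36hpi against 24-30hpi, 10 rose and 2 fell, with 49.9% of all genes called (21.0% rose and 29.0% fell). For 30-36hpi against 12-18hpi, 12 rose and 2 fell, with 74.3% of all genes called (33.3% rose and 41.0% fell). Eif4ebp1, whose protein holds back cap-dependent initiation until mTOR phosphorylates it, measured 111, 109 and 89.1 CPM at 30-36hpi, against 5.18, 7.04 and 4.58 CPM at 12-18hpi (log2 fold change 4.20 ± 0.26, adjusted p = 6.00e-16). At 70-76hpi against 48-54hpi, 1 rose and 10 fell, with 43.4% of all genes called (21.6% rose and 21.8% fell). Larp4, which binds poly(A) tails and the poly(A)-binding protein, measured 219, 247 and 150.4 CPM at 70-76hpi, against 1298, 1378 and 1316 CPM at 48-54hpi (log2 fold change -2.70 ± 0.14, adjusted p = 3.20e-17). None of the libraries of these windows overlap for either gene. In KO against ctrl 1 rose and 4 fell, with 8.13% of all genes called (1.82% rose and 6.31% fell). Larp1 measured 10.3, 10.5 and 16.2 CPM in KO libraries, against 34.4, 49.3 and 44.8 CPM in ctrl (log2 fold change -1.80 ± 0.38, adjusted p = 0.0138). Every KO library was below every ctrl library. Its call was lost in 4 of 14 alternatives.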
